A study of Mus musculus with 6 samples.

Results

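Annexins were read in 6 arrays of mouse embryos, 2 from embryos depleted of the transcription factor TEAD4 and 4 from control embryos. The 10 genes were Anxa1, Anxa2, Anxa3, Anxa4, Anxa5, Anxa6, Anxa7, Anxa8, Anxa9 and Anxa11, out of 30184 genes on the array. Each gene was read from its brightest row, the one with the highest mean log2 intensity over all 6 arrays, so the rows were selected on the overall level and not on the differences between groups. The list of family members leaves out Anxa10 and Anxa13 and was chosen with earlier results of these data known, while the rows were not chosen by any difference. The table held a row of its own for 9 of the 10 genes. Anxa11 shared all 3 of its rows with the predicted genes Gm2260 or Gm2274, so its values belong to the Anxa11/Gm2260 row and are uncertain as a reading of Anxa11.

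Annexins are cytosolic proteins that bind acidic phospholipids of membranes when calcium is raised, through a conserved core of repeats, while a variable N-terminal tail gives each member its own partners. They are known for organising membrane domains beneath the cell surface, for endocytosis and exocytosis, for sealing membrane wounds and for linking membranes to actin. Epithelia are rich in them, and the trophectoderm, the outer layer of the blastocyst that surrounds the cavity, is the first epithelium of the mouse embryo.

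All embryos came from B6C3F1 x CD1 matings, and all were injected at the pronuclear stage with dextran beads and mCherry-Trim21 mRNA, which encodes a tagged ubiquitin ligase that binds antibodies and sends them with their antigen to the proteasome. The anti-TEAD4 embryos received in addition a monoclonal antibody against TEAD4, which is required for the trophectoderm, and the anti-GFP embryos an antibody that has no antigen in a wildtype embryo, while the mCherry-Trim21 mRNA embryos received no antibody. RNA was taken 72 h after injection (the labels give an age of 4 dpc and 96 h in culture) from pools of 10 whole embryos, with 2 pools, a and b, and 2 arrays per group. Per the labels the cavity was missing or small and aberrant in the anti-TEAD4 pools and normal in the control pools, so an effect of the antibody and one of the missing cavity cannot be told apart. The labels do not say whether the pools came from separate matings, and p values then measure only the spread between these pools.

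Intensities are on a log2 scale, on which a difference of 1 is a doubling of linear intensity. The anti-TEAD4 a array stood apart from the rest: its median over all rows was 4.50, against 4.19 to 4.29 on the other 5 arrays, and its mean correlation with the others was 0.975, against 0.986 to 0.989. Tead4 itself read 8.44 and 8.95 in anti-TEAD4 pools, against 9.30 and 9.16 in anti-GFP pools and 9.40 and 9.40 in mCherry-Trim21 mRNA pools, which is a reading of its transcript and not of the protein the antibody removes. The ligase differed between the groups too: Trim21 read 12.11 and 11.47 in anti-TEAD4 pools, against 10.16 and 10.60 in anti-GFP pools and 9.05 and 7.56 in mCherry-Trim21 mRNA pools, without overlap between any of the groups. The array does not separate the injected mRNA from the embryo's own, and the part of the Trim21 level in the annexin differences was not tested. Sensory receptor genes (1717 olfactory and vomeronasal receptors), which embryos have no known need to express, served as a level for dim rows. Their 95th percentile was 4.92 and 4.57 on the anti-TEAD4 arrays and 4.46 to 4.61 on the control arrays.

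The annexins split into 3 sets. Anxa3, Anxa6 and Anxa9 were lower in both anti-TEAD4 pools than in every control pool, Anxa8 was higher in both anti-TEAD4 pools than in every control pool, and the other 6 overlapped with the controls. The lower 3 of 10 stood beside 7.68% of all genes that lay below all 4 control arrays, and the higher 1 of 10 beside 11.4% that lay above them. No annexin passed an adjusted p under 0.05 in limma, and neither did any other gene (0% of 30184 in each of the 4 comparisons). With an unadjusted limma p under 0.05 as the threshold, 3 members were lower (4.44% of all genes) and 1 was higher (4.06%) against both control groups, and these were the same 4 genes. The count was also 3 lower and 1 higher against mCherry-Trim21 mRNA (3.32% and 3.18% of all genes) and against anti-GFP (3.76% and 2.84%). The methods' t-test on linear intensities likewise left 0 annexins after Benjamini-Hochberg adjustment. Its unadjusted p was under 0.05 for 2 members against mCherry-Trim21 mRNA (Anxa3 and Anxa6), as for 1467 of the 30184 genes. Against anti-GFP it was under 0.05 for 1 member (Anxa9), as for 1221 of the 30184 genes. The lowest t-test p of a member was 0.0136 (Anxa3 against mCherry-Trim21 mRNA), above the 0.01 used in the paper.

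**Figure D1:**
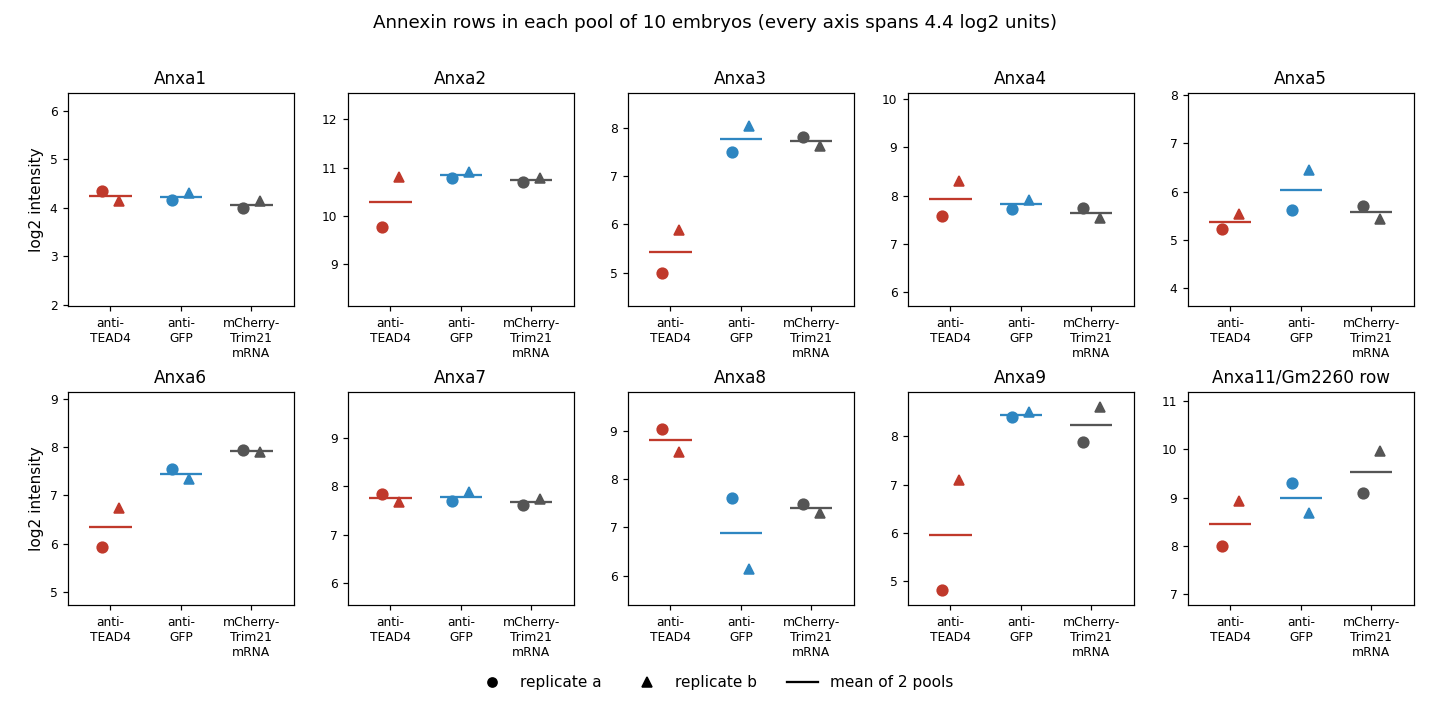
Log2 intensity (vertical axis) of the 10 annexin rows in each pool of 10 embryos, with 1 panel per gene, groups along the horizontal axis, circles for replicate a, triangles for replicate b and a line at the mean of each group. Both anti-TEAD4 points lie below all control points for Anxa3, Anxa6 and Anxa9 and above them for Anxa8.

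Anxa3, an annexin best known from neutrophils and epithelia, had the widest gap between the groups. It read 5.00 and 5.89 in anti-TEAD4 pools, against 7.49 and 8.03 in anti-GFP pools and 7.81 and 7.62 in mCherry-Trim21 mRNA pools. The higher anti-TEAD4 pool was 1.60 below the lowest control pool, while the 4 control pools spanned 0.54. The mean difference from both control groups was -2.29 (SE 0.30, 95% interval -3.04 to -1.54), a level 4.90-fold lower, with a limma adjusted p of 0.209. The reading of 5.00 in pool a was close to the sensory receptor level of that array (95th percentile 4.92), so the fold rests in part on a dim reading. The comparison with mCherry-Trim21 mRNA gave -2.27 (adjusted p = 0.394) and that with anti-GFP -2.32 (adjusted p = 0.39) in limma. Both comparisons rest on the same anti-TEAD4 arrays.

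Anxa9, an atypical annexin whose calcium-binding sites are degenerate, had the largest mean difference and the widest spread within a group. It read 4.82 and 7.09 in anti-TEAD4 pools, against 8.39 and 8.49 in anti-GFP pools and 7.88 and 8.60 in mCherry-Trim21 mRNA pools. Pool a was at the level of the sensory receptor genes, so that 1 of the 2 anti-TEAD4 arrays read the gene above that level and the difference in pool a is set by a dim reading. Pool b was 0.79 below the lowest control pool. The difference of the measured values from both control groups was -2.38 (SE 0.63, 95% interval -3.97 to -0.80), with a limma adjusted p of 0.455. The difference from the mean of the controls was -3.52 in pool a and -1.25 in pool b, so the size of the difference depended on which pool was read. Against anti-GFP the difference was -2.48 (SE 0.73), and against mCherry-Trim21 mRNA it was -2.28 (SE 0.73).

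Upstream sequences were searched for short motifs of factors known from the trophectoderm and from other epithelia. RefSeq windows (GRCm38.p6, the 250 bases before a gene's start) matched 8 of the 10 members in 11 windows, with Anxa3 and Anxa6 unmatched. The motifs, read on both strands, were GGAATG for TEAD, TGANTCA for AP-1, GCCNNNGGC for TFAP2 and AGATAA for GATA. No other motif was searched. The windows of Anxa9 and Anxa8, which differed between groups, and of Anxa1, the sole holder of GGAATG, are shown with motifs in capitals, each read 5′ to 3′ on the strand of the gene. They lie at chr3:95315181-95315430 (Anxa9 window 1, minus strand), chr3:95307193-95307442 (Anxa9 window 2, minus strand), chr14:34085729-34085978 (Anxa8, plus strand) and chr19:20390672-20390921 (Anxa1, minus strand).
Anxa9 window 1: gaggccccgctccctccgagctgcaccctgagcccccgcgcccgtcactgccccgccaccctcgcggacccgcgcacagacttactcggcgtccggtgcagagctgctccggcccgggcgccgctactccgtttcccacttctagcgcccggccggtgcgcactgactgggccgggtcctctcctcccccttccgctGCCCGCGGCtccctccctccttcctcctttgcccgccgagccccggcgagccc
Anxa9 window 2: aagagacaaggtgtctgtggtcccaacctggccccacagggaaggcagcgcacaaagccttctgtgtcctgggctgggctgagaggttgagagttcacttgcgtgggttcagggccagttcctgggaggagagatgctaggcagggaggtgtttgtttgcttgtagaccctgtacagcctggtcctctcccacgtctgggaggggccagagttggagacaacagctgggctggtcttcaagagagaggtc
Anxa8: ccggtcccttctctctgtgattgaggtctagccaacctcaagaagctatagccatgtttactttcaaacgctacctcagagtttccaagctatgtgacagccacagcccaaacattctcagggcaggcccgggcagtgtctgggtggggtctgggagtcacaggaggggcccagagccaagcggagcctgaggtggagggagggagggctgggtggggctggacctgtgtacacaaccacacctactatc
Anxa1: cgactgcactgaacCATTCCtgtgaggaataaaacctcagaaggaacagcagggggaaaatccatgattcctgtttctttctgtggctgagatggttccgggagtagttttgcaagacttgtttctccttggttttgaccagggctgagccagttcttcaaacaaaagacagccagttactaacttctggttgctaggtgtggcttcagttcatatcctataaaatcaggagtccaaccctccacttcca

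The TEAD letters occurred in 1 of the 11 annexin windows, that of Anxa1, as CATTCC 236 bases before the start, and in 12.6% of all 32851 windows. The TFAP2 letters stood 53 bases before the start in the first Anxa9 window, in capitals as GCCCGCGGC, and also in a window of Anxa4. That made 2 of 11 windows, where 13.7% of all windows held them. The AP-1 letters occurred in the Anxa2 window (6.75% of all windows) and the GATA letters in a window of Anxa4 (9.99%). The Anxa8 window and the second Anxa9 window held none of these letters. The first Anxa9 window was 75.6% G and C and the second 58.8%.

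Anxa6, which carries a duplicated annexin core and is known for work in endosomes and cholesterol traffic, followed with a smaller difference. It read 5.94 and 6.75 in anti-TEAD4 pools, against 7.54 and 7.34 in anti-GFP pools and 7.93 and 7.89 in mCherry-Trim21 mRNA pools. Its difference from both control groups was -1.33 (SE 0.25, 95% interval -1.95 to -0.71), a level 2.51-fold lower, with a limma adjusted p of 0.325. The control groups did not overlap for this gene, as anti-GFP pools lay between the anti-TEAD4 and the mCherry-Trim21 mRNA pools. The difference was -1.10 against anti-GFP (limma adjusted p = 0.623) and -1.56 against mCherry-Trim21 mRNA (limma adjusted p = 0.489).

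Anxa8, known from placenta and skin and for its role on late endosomes, was the member that was higher. It read 9.04 and 8.55 in anti-TEAD4 pools, against 7.60 and 6.15 in anti-GFP pools and 7.49 and 7.30 in mCherry-Trim21 mRNA pools. The lower anti-TEAD4 pool was 0.95 above the highest control pool, although the control pools themselves spanned 1.45 through the low anti-GFP b pool. The difference from both control groups was 1.66 (SE 0.42, 95% interval 0.61 to 2.71), a level 3.16-fold higher, with a limma adjusted p of 0.442. It was 1.92 against anti-GFP and 1.40 against mCherry-Trim21 mRNA, with the anti-TEAD4 arrays shared.

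Markers of the trophectoderm were lower along with these 3 annexins. Of 10 listed markers, on a list that holds genes reported from these arrays, 9 were read, since Gata3 had no row of its own and was not used here. Of the 9, 7 were below all 4 control arrays (7.68% of all genes). Among them Eomes, which the paper excepts from the reduced markers, was below by only 0.01. The median difference of all 9 was -2.47, and single differences ran from -4.14 for Tspan8 to -0.33 for Tfap2c. Their summed linear level was 38210 and 73560 in anti-TEAD4 pools, against 292300 to 302800 in the 4 control pools. The sum mostly reads Krt18 and Krt8, by far the brightest of the 9, at 17.34 to 17.60 and 16.14 to 16.60 in control pools. Pool a was the lower of the anti-TEAD4 pools there too, with a median difference of -2.76 from the control mean, and -1.70 in pool b. In pools of whole embryos, fewer trophectoderm cells and less annexin RNA per cell cannot be told apart. Of 7 inner cell mass markers 2 were above all control arrays (11.4% of all genes) and 0 below (7.68%). Sox2 had a mean difference of 0.61 (SE 0.14). That of Fgf4 was 0.50 (SE 0.24), but it cleared the highest control array by only 0.04. The median difference of the 7 was 0.08, close to the 0.06 of all genes, with 3 negative and 4 positive. Of 5 primitive endoderm markers 1 was below (7.68% of all genes), Dab2, with a difference of -0.78 (SE 0.14), and 0 were above. The median difference of the 5 was 0.14, with 3 of them positive. On no array did 3 of the 5 exceed the sensory receptor level. Gata6, which did so with Dab2 on all arrays, differed by 0.14 (SE 0.22). Of 8 measured cumulus cell markers 1 was above all control arrays (11.4% of all genes), Inha by only 0.03, and 0 were below. Their summed linear level was 271.6 and 235.9 in anti-TEAD4 pools, against 194.5 to 214.3 in control pools. On no array did 5 of the 8 exceed the sensory receptor level. Has2 was high in pool a only (6.25 and 5.28 in pools a and b), and Amhr2 mainly in pool b (6.12 and 6.53). The macrophage marker Cd68 read 9.57 and 9.06 in anti-TEAD4 pools, against 8.19 and 7.27 in anti-GFP pools and 9.00 and 8.44 in mCherry-Trim21 mRNA pools. It cleared the highest control pool by only 0.06, while its control pools spanned 1.73. Ptprc and Lyz2, the defining markers of blood cells and macrophages on the list, were at the level of the sensory receptor genes. The part of these markers in the annexin differences was not tested.

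The members that overlapped with the controls included Anxa2, the partner of S100a10 in a tetramer beneath the plasma membrane. It read 9.77 and 10.81 in anti-TEAD4 pools, against 10.78 and 10.91 in anti-GFP pools and 10.70 and 10.78 in mCherry-Trim21 mRNA pools. Pool a was low, with a difference of -1.02 from the control mean, and pool b was within the control range. The difference from both control groups was -0.50 (SE 0.30, 95% interval -1.25 to 0.24).

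On the Anxa11/Gm2260 row anti-TEAD4 a was again the lowest array. ANXA11 is known to bind the calcium sensor PDCD6 and to tether RNA granules to lysosomes. The row read 8.0 and 8.92 in anti-TEAD4 pools, against 9.30 and 8.68 in anti-GFP pools and 9.09 and 9.96 in mCherry-Trim21 mRNA pools, and the difference was -0.80 (SE 0.39, 95% interval -1.76 to 0.17). Pool a was below and pool b above the lowest control pool. The other rows carrying the Anxa11 name had pool a lowest as well, at 7.61 (anti-TEAD4 a) and 8.53 (anti-TEAD4 b) on the row shared with Gm2274 and at 5.13 and 5.63 in the same pools on the row shared with both predicted genes.

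Anxa5, the phosphatidylserine-binding protein used as a stain for dying cells, read 5.23 and 5.53 in anti-TEAD4 pools, against 5.62 and 6.44 in anti-GFP pools and 5.70 and 5.44 in mCherry-Trim21 mRNA pools. Its difference of -0.42 (SE 0.26, 95% interval -1.08 to 0.24) was smaller than the 1.0 spanned by its controls. Anxa4, an annexin of secretory epithelia, read 7.58 and 8.30 in anti-TEAD4 pools, against 7.72 and 7.91 in anti-GFP pools and 7.75 and 7.54 in mCherry-Trim21 mRNA pools. Pool b was its highest array, and the difference from both control groups was 0.21 (SE 0.23, 95% interval -0.37 to 0.79).

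Anxa7, or synexin, first described as a protein that joins secretory granules, was the steadiest of the members. It read 7.84 and 7.68 in anti-TEAD4 pools, against 7.69 and 7.88 in anti-GFP pools and 7.61 and 7.73 in mCherry-Trim21 mRNA pools, with a difference of 0.03 (SE 0.14). Its 95% interval of -0.31 to 0.37 leaves out changes of the size seen in Anxa3 or Anxa9. Anxa1, the glucocorticoid-induced annexin that dampens inflammation, was at or below the sensory receptor level on all 6 arrays. It read 4.35 and 4.14 in anti-TEAD4 pools, against 4.15 and 4.3 in anti-GFP pools and 3.99 and 4.13 in mCherry-Trim21 mRNA pools, so that these data hold no reading of its level above background. Anxa9 was above that level on 5 arrays and the other 8 members on all 6, Anxa3 only just on the anti-TEAD4 a array (5.00, against 4.92).

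Both other annexins of the mouse, Anxa10 and Anxa13, were dim. Anxa10, an annexin of the stomach, read 4.11 and 3.90 in anti-TEAD4 pools, against 3.85 and 3.76 in anti-GFP pools and 3.81 and 3.65 in mCherry-Trim21 mRNA pools. Its higher anti-TEAD4 values stayed under the sensory receptor level on every array. Anxa13, an annexin of the gut, read 4.67 and 4.16 in anti-TEAD4 pools, against 4.01 and 4.15 in anti-GFP pools and 4.25 and 4.17 in mCherry-Trim21 mRNA pools, with the highest value on the anti-TEAD4 a array.

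**Figure D2:**
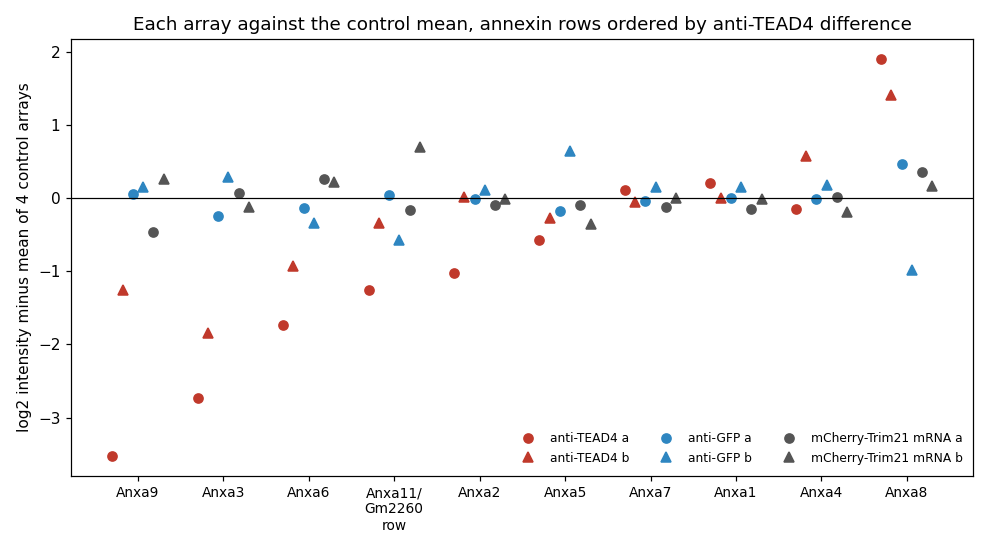
Log2 intensity of each array minus the mean of the 4 control arrays (vertical axis) for the annexin rows, ordered by the anti-TEAD4 difference (horizontal axis), with colours for groups and circles and triangles for replicates a and b. The anti-TEAD4 circles lie farther from 0 than the triangles for Anxa9 (-3.52 and -1.25), Anxa3 (-2.74 and -1.85) and Anxa8 (1.90 and 1.42).

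The anti-TEAD4 pools differed from each other as well as from the controls. The median difference of the 10 members from the mean of the control arrays was -0.80 in pool a and -0.16 in pool b, where all genes had medians of 0.08 and 0.03. With both pools the median was -0.46, against 0.06 for all genes, and 6 of the 10 members had a negative difference. Pool a was the farther from the controls for each of the 4 members beyond the control range: -3.52 and -1.25 for Anxa9, -2.74 and -1.85 for Anxa3, -1.73 and -0.92 for Anxa6, and 1.90 and 1.42 for Anxa8 in pools a and b. Pool a was thus the lower pool for 3 of these genes and the higher pool for Anxa8. The sensory receptor genes read 0.24 higher in the median on the anti-TEAD4 a array than on the others. The part of this offset in the annexin differences was not tested.

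Without the anti-TEAD4 a array the differences from both control groups were -1.25 for Anxa9, -1.85 for Anxa3, -0.92 for Anxa6 and 1.42 for Anxa8, with limma adjusted p values of 0.322, 0.208, 0.234 and 0.514. Without the anti-TEAD4 b array they were -3.52, -2.74, -1.73 and 1.90. Anxa2, Anxa3, Anxa6 and Anxa9 then passed an adjusted p under 0.05 in limma (0.0195, 0.0125, 0.0125 and 0.0122), together with 4025 genes or 13.3% of those tested, in a fit where a single array stands for the anti-TEAD4 group and is taken to vary like the controls. The call thus rested on the anti-TEAD4 a library. The directions of Anxa3, Anxa6, Anxa8 and Anxa9 could not turn without either array. These members were set apart by having both anti-TEAD4 arrays beyond all control arrays.

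**Figure D3:**
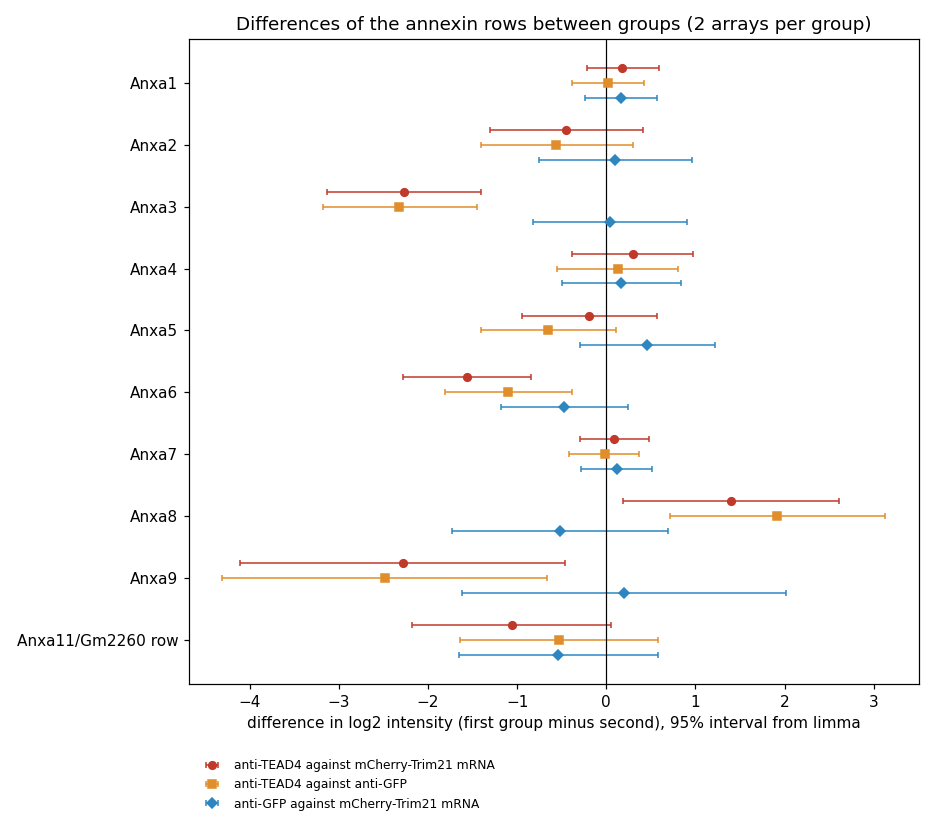
Difference in log2 intensity between groups (horizontal axis, named group first minus second) for each annexin row (vertical axis), with 95% intervals from limma over 2 arrays per group. The intervals of Anxa3, Anxa6, Anxa8 and Anxa9 leave out 0 in both anti-TEAD4 comparisons, and every anti-GFP interval against mCherry-Trim21 mRNA includes 0.

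The comparison of the control groups set embryos with an antibody that has no antigen against embryos without antibody. Trim21 also differed between these groups, by 2.08 (SE 0.52), so antibody and ligase level cannot be told apart. With 2 arrays each, the intervals were too wide to exclude a change of about 1 on the log2 scale for several members. The lowest adjusted p over all genes was 1. No member passed an adjusted or an unadjusted p under 0.05 between anti-GFP and mCherry-Trim21 mRNA in limma, where 0.351% of all genes were lower and 0.742% higher at the unadjusted threshold. The methods' t-test had an unadjusted p under 0.05 for 1 member, Anxa6, and for 1197 of all 30184 genes. Anxa6 was below both mCherry-Trim21 mRNA arrays, with a mean difference of -0.47 (95% interval -1.18 to 0.24), and Anxa1 was above both by 0.17 at background level, where 11.3% and 17.4% of all genes were below and above. The differences of Anxa3 (0.04, 95% interval -0.82 to 0.91) and Anxa9 (0.20, 95% interval -1.62 to 2.02) did not exceed the spread between pools. That of Anxa8 was -0.52 (95% interval -1.73 to 0.69) and came from the anti-GFP b pool, without which it was 0.21.

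S100 proteins, small calcium-binding proteins that dock on the tails of several annexins, were read from a list of 16 genes, of which 15 were measured, with S100pbp on it as a gene for an S100-binding protein rather than an S100 protein. Of the 15, 4 were below all control arrays (7.68% of all genes) and 0 above (11.4%). They were S100a14, S100a16, S100g and S100pbp, and S100g was at the sensory receptor level. An unadjusted limma p under 0.05 was found for 2 of them, S100a14 and S100pbp, both lower (4.44% of all genes), and none passed after adjustment. These 4 were named after their values were seen. The median difference of the 15 measured genes was 0.07, close to the 0.06 of all genes. S100a10, the ligand of Anxa2, read 5.20 and 5.75 in anti-TEAD4 pools, against 5.71 and 5.97 in anti-GFP pools and 5.90 and 5.93 in mCherry-Trim21 mRNA pools. As with Anxa2, pool a was low and pool b was within the controls, and the difference was -0.40 (SE 0.20). S100a6, a ligand of several annexins, read 4.90 and 6.46 in anti-TEAD4 pools, against 5.34 and 5.21 in anti-GFP pools and 5.73 and 5.01 in mCherry-Trim21 mRNA pools, so the anti-TEAD4 pools lay on both sides of the controls. S100a4, a ligand of Anxa2, was at the sensory receptor level on all arrays.

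Other annexin partners came from a list of 12 genes, of which 9 were measured. The 2 genes of this list below all control arrays, Sri and Myof (7.68% of all genes), also had an unadjusted limma p under 0.05 (4.44% of all genes), none passed after adjustment, and the median difference was -0.11. Sri encodes sorcin, a calcium-binding protein that docks on Anxa7. It read 6.03 and 5.85 in anti-TEAD4 pools, against 6.77 and 7.30 in anti-GFP pools and 6.93 and 6.85 in mCherry-Trim21 mRNA pools, and its difference of -1.02 (SE 0.19, limma adjusted p = 0.318) was of like size in both pools. Its partner Anxa7 differed by 0.03. Myof, a ferlin of plasma membrane repair that was named here after its values were seen, read 4.82 and 4.63 in anti-TEAD4 pools, against 4.95 and 5.35 in anti-GFP pools and 5.59 and 5.41 in mCherry-Trim21 mRNA pools. Pdcd6, the calcium sensor that binds Anxa7 and Anxa11, differed by -0.11 (SE 0.19), and Pdcd6ip, its partner in membrane scission and repair, by -0.18 (SE 0.19).

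**Figure D4:**
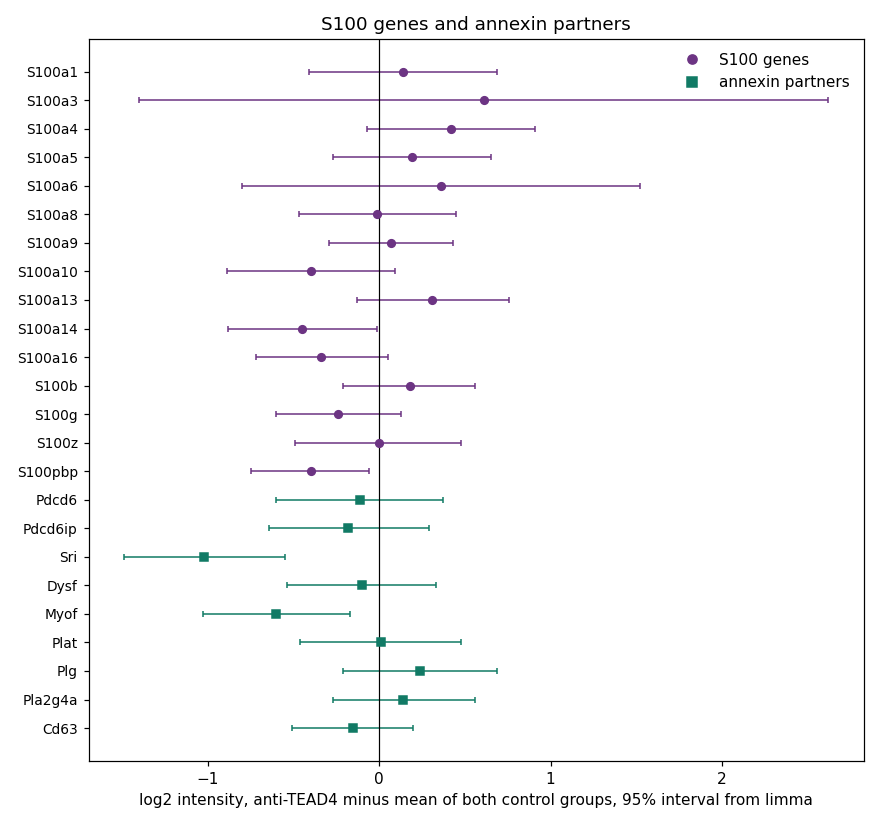
Difference in log2 intensity of anti-TEAD4 minus the mean of both control groups (horizontal axis) for 15 genes of the S100 list, S100pbp included, and 9 annexin partners (vertical axis), with 95% intervals from limma. Sri has the lowest value at -1.02, and the intervals of all but S100a14, S100pbp, Sri and Myof include 0.

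Genes whose 6 arrays ran closest to those of Anxa9 and Anxa8 were looked up among 10868 genes, with each gene centred on its own mean and the Euclidean distance over the 6 arrays as the measure. For Anxa9 they were Csta2, a cysteine protease inhibitor of the stefin family (distance 0.63), the kinase gene Cdk5 (0.64) and Sdr39u1, a short-chain dehydrogenase (0.73). Csta2 read 5.15 and 7.21 in anti-TEAD4 pools, against 8.03 and 8.45 in anti-GFP pools and 8.09 and 8.28 in mCherry-Trim21 mRNA pools. Its wide gap between the anti-TEAD4 pools follows from its being picked for closeness to Anxa9. For Anxa8 they were the tumour suppressor Rb1 (0.78), the 5S ribosomal RNA gene n-R5s151 (0.82) and Ccn1, a matricellular protein whose gene is a common readout of YAP and TEAD activity (0.87). Ccn1 read 9.83 and 9.53 in anti-TEAD4 pools, against 8.57 and 7.85 in anti-GFP pools and 8.04 and 8.13 in mCherry-Trim21 mRNA pools. That it was high in both anti-TEAD4 pools likewise follows from its being picked for closeness to Anxa8. Distances over 6 arrays of 3 groups describe these libraries and carry no test.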

How the data were processed

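Each pool of 10 embryos gave 1 Affymetrix Mouse Transcriptome Array, and the total RNA was not treated with DNase. The authors applied robust multiarray averaging in the Affymetrix Expression Console (version not given in the sources used here) and deposited log2 intensities with 2 decimals; arrays carry no read counts, and their number limits the precision. In 1 column a single cell held a value that is no log2 intensity, and its row was left out of the 65956 rows. Of the rest, 30645 rows carried 1 gene symbol, 2168 several and 33142 none here. The brightest row per gene gave 30184 genes, Anxa11 excepted, which had no row of its own.

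The means of the 3 groups were estimated from the 6 arrays in limma 3.58.1 (R 4.3.3) with empirical Bayes moderation, and two-sided p values were corrected over the whole set of genes by Benjamini-Hochberg. The script was checked on simulated data. The methods' t-test took equal variances on linear intensities, and its outcome at the unadjusted 0.05 is given. All 10 members, the ligands on the S100 and partner lists, and the 3 nearest genes were named by rule. The members and lists were chosen with earlier results of these data known, and the AP-1, TFAP2 and GATA motifs were added after that of TEAD had been counted. The alternatives were each array left out, the replicate block, only the groups compared, an intensity trend, quantile normalization, median centring, omission of dim genes, averaging over the rows of a gene, and all rows. Python 3.11.15 with pandas 2.3.3, numpy 2.4.6 and matplotlib 3.10.9 was used.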

Additional observations from a re-analysis of the deposited data

How the results depend on the processing

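Leaving out 1 array in turn gave 0 to 4 annexins past the adjusted threshold in each of the 3 anti-TEAD4 comparisons. The 4 came from the fit without the anti-TEAD4 b array, in which 2844 genes (9.42%) were called against mCherry-Trim21 mRNA, 2792 (9.25%) against anti-GFP and 4025 (13.3%) against both. No annexin passed in the other fits listed or by the methods' t-test. The count beyond the control arrays ranged over 4 to 8 with 1 array left out. The 8 (6 lower and 2 higher) came without anti-TEAD4 b, where only the anti-TEAD4 a array had to lie beyond the controls. Any gene meets that more easily, and the share over all genes was not counted, so the 8 is no result about annexins. The median difference ranged over -0.80 (without anti-TEAD4 b) to -0.16 (without anti-TEAD4 a). In all 13 differences of members turned sign under an alternative. The anti-TEAD4 differences of Anxa3, Anxa6, Anxa8 and Anxa9 made up 0 of them. For the fits with an array left out, that was fixed by how these 4 were set apart. Of the 13, 8 were at most 0.21 in size and stayed within their standard errors. The other 5 were Anxa2 against mCherry-Trim21 mRNA (range -0.97 to 0.07) and against both control groups (-1.02 to 0.018) without anti-TEAD4 a, Anxa4 against mCherry-Trim21 mRNA (-0.065 to 0.66) and against anti-GFP (-0.24 to 0.49) without anti-TEAD4 b, and Anxa8 between anti-GFP and mCherry-Trim21 mRNA (-1.25 to 0.21) without anti-GFP b; the cause was not tested. Adjusted limma p values against both control groups ranged over the alternatives from 0.012 to 0.963 for Anxa9 and from 0.08 to 0.963 for Anxa8. The a minus b differences correlated at -0.25, 0.21 and -0.51 between groups. Each value rests on 1 a and 1 b array per group, so these cannot show whether the replicate letters pair the samples. The replicate block left 0 annexins past the adjusted threshold in all 4 comparisons, with 2329 genes at an unadjusted limma p under 0.05 against both control groups. Quantile normalization moved the median of all genes against both control groups by -0.10 and median centring by -0.13, and the difference of Anxa1 from both control groups changed sign under both and that of Anxa7 under median centring. The fit restricted to the groups compared equals the main one for both control groups and was not run, and the methods' t-test was not run there. Leaving out dim genes removed Anxa1.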
